A study of Danio rerio with 9 samples.

Results

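The control embryos of this series were zebrafish of the Tuebingen strain that had received mRNA of green fluorescent protein (GFP), and their whole-embryo RNA at 12 h after fertilization is described here as a baseline. They make up 3 of the 9 arrays, chosen by their titles as control replicates. Total RNA was pooled from 60 embryos for each array, and microinjection was done in 3 independent experiments. The other groups, 3 arrays each, were injected with mRNA for Hif-1α or Hif-3α, which are alpha chains of HIF, the hypoxia-inducible factor, and were of the same strain and age. Every group thus carries an injected mRNA, and no uninjected embryos are described here. RNA was labelled with Cy3 and hybridised to 1-colour Agilent arrays with 43603 zebrafish probes. The level of a gene is the log2 of its processed signal minus the 75th percentile of the array, taken from its brightest probe. A gene was counted as detected where the scanner's flag for a spot well above background was set on 3 of 3 control arrays for at least 1 of its probes.

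At this age the zebrafish embryo has completed gastrulation and is adding somites, the blocks of paraxial mesoderm that give rise to muscle, from a presomitic mesoderm in which genes of the Notch pathway oscillate. The neural plate is being patterned along its length, the notochord and the first blood and vessel precursors form in the mesoderm, and an outer epithelium, the periderm, covers the embryo. The yolk syncytial layer, a layer of nuclei shared in the yolk's outer cytoplasm, exports lipoproteins to the embryo, while maternal RNAs laid down in the egg are mostly gone.

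The control arrays were of similar quality, with a 75th percentile of the signal of 770, 826 and 798 on control arrays 1, 2 and 3 and with at most 74.8% of probes well above background, on control 2. Correlations between them across probes were 0.979 to 0.983, and no spot was saturated. The 3 control arrays lay on 3 different slides, and by the scan times control 1 was scanned on another day than controls 2 and 3. A batch of control arrays therefore holds at most 2 of them, and day, slide and injection experiment cannot be told apart among the 3. On control 3, 43 probes had a local background over 2 times the median of the array, up to 25687 against a median of 29.0, while controls 1 and 2 had 0 such probes. These probes covered 19 detected genes. With 3 arrays per group, precision is limited by their number.

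Of 28550 genes and transcripts on the array, 18676 were detected, or 65.4%. Another 2756 were well above background on 1 or 2 control arrays, and 7118, or 24.9%, on none. Genes with a symbol other than a clone or placeholder name were detected in 9672 of 11910 cases (81.2%), and transcripts without a symbol in 8321 of 15692 cases (53%). Of 9723 genes with several probes, 1796 had probes that differed in detection. Leaving out control 1 raised the detected genes to 19637, against 18749 without control 2 and 18900 without control 3. Of the 7118 genes detected on no control array, 85 were detected on 3 of 3 arrays of at least 1 Hif group. The reverse count, of genes detected in the controls but on no Hif array, is not given here.

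The brightest signals of the control embryos came mostly from genes of protein synthesis. The 100 symbols with the highest mean levels stood between 7.26 and 8.97, and 58 of them were ribosomal proteins. The elongation factor eef1a1l1, which brings aminoacyl-tRNA to the ribosome, had levels of 8.79, 9.08 and 9.04 on control arrays 1, 2 and 3. The chaperone hsp90ab1 stood at 8.86, 8.84 and 8.93. The arrays lay close together for both genes. rpsa, a protein of the small ribosomal subunit, read 8.80, 8.86 and 8.97, and the elongation factor eef2b read 8.76, 8.71 and 8.84. Among the 30 brightest were also cirbpa, a cold-inducible RNA-binding protein, tpt1, a translationally controlled protein, rack1, a scaffold on the ribosome, and hmga1a, a chromatin protein with levels of 8.47, 8.30 and 8.36. The cytoplasmic actin actb2 stood at 8.15, 8.46 and 8.51. Brightness also depends on the sequence of a probe and on near-identical copies of a gene that it can bind, so this order is one of signals and not of transcript numbers. The last genes inside the 100 were the cytokeratins cyt1l (7.28) and cyt1 (7.26), and the first outside were rps23 (7.23) and the phosphodiesterase pde8a (7.22). The spread of the 100 was small, with a median standard deviation (SD) over the 3 arrays of 0.096 log2 units and a highest SD of 0.30.

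Genes with defined sites of expression at this stage were nearly all detected. The lists of markers, 14 for cell types and 15 for functions, were read as counts of detected members against the 81.2% of genes with a symbol. Presomitic mesoderm and segmentation genes were detected in 27 of 27 cases, and 0 of them had an SD of at least 1. Against the 1.6% of all detected genes with such an SD, 0 of 27 is no departure. Their brightest signals came from msgn1, a transcription factor of the presomitic mesoderm, at 5.65, 5.48 and 5.21, and from lfng, a glycosyltransferase that modifies Notch, at 4.98, 5.36 and 5.62. The control arrays ran in opposite order for these genes, with control 3 lowest for msgn1 and highest for lfng. nrarpa, an ankyrin protein that dampens Notch signalling, read 4.81, 5.16 and 5.07, and the somite homeobox gene meox1 read 4.76, 4.82 and 4.96.

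**Figure D1:**
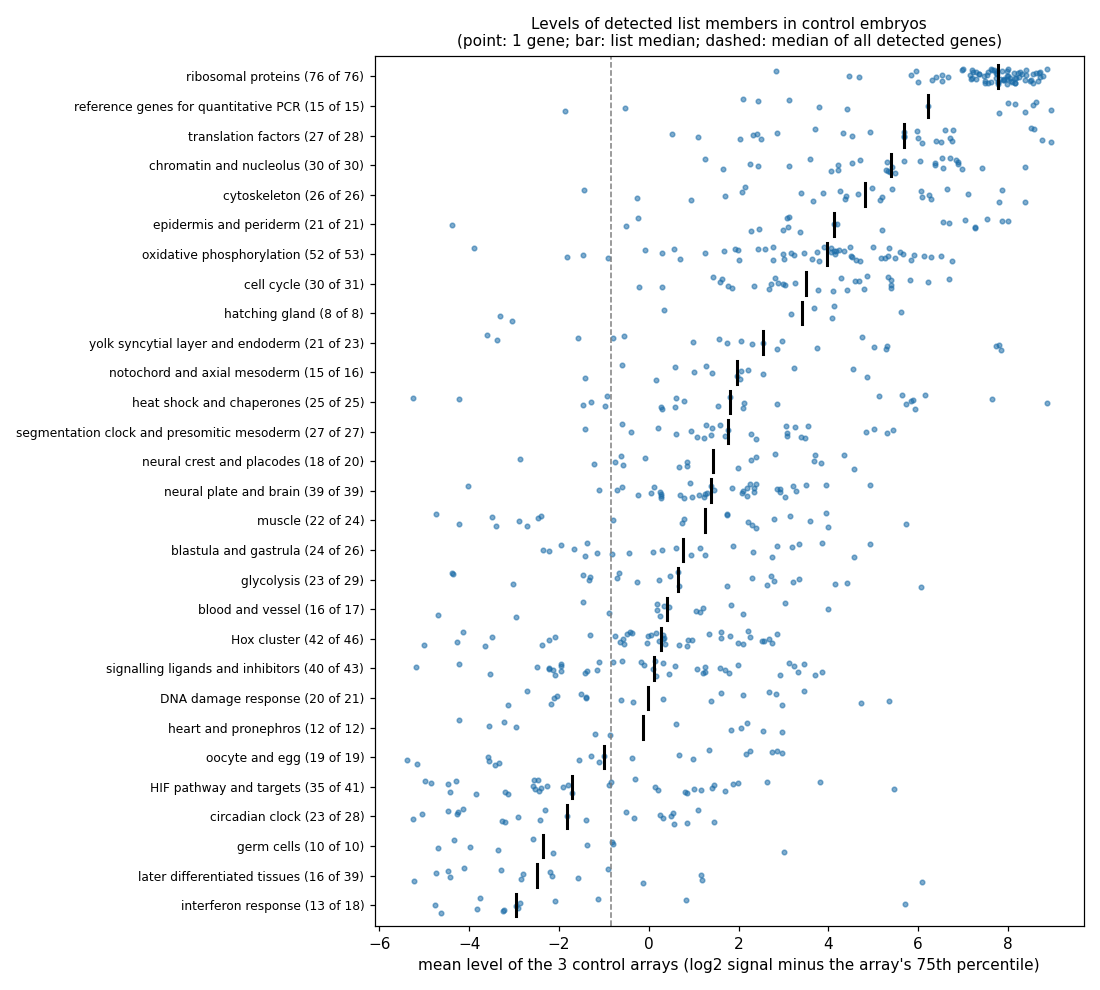
Mean level over the 3 control arrays (log2 signal minus the array's 75th percentile, horizontal axis) of every detected member of 29 gene lists, with the number detected of those with a probe in brackets. Points are genes, bars are list medians and the dashed line is the median of all detected genes, -0.84; ribosomal proteins have the highest median, 7.79, and since probes differ in brightness the picture describes signals and not transcript numbers.

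Notochord and axial mesoderm genes were detected in 15 of 16 cases. The type II collagen col2a1a, made by the notochord and its neighbours, stood at 4.43, 4.33 and 5.80, so control 3 was the high array. shha, the hedgehog ligand of the notochord and floor plate, was even at 3.14, 3.19 and 3.39. The forkhead factor foxa2 of the axial mesoderm and endoderm read 2.61, 2.68 and 2.36. The exception in detection was col9a1a, a collagen, which was well above background on no control array.

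All 39 of 39 neural plate and brain genes were detected. The SOXB1 factors of the neural plate were bright and even: sox3 had levels of 4.91, 4.87 and 5.02, sox19a of 3.88, 3.87 and 4.13, and sox2 of 3.57, 3.48 and 3.46. No pool stood apart for any of them. mafba, which patterns the hindbrain, read 2.92, 3.32 and 3.62, and six3b of the anterior forebrain 3.43, 3.36 and 2.86. The retinal genes rx1 and rx3 ran in opposite ways: rx1 was at -0.29, -0.25 and 0.86, highest on control 3, and rx3 was at -2.95, -3.40 and -5.72, lowest on control 3. Neural crest and placode genes were detected in 18 of 20 cases, led by dlx3b of the preplacodal border at 4.45, 4.75 and 4.55 and tfap2a at 4.34, 4.36 and 4.36. The exceptions, mitfa and tfec, both factors of pigment cell precursors, were detected on no control array.

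Blood and vessel genes were detected in 16 of 17 cases. tal1, a factor of blood and vessel precursors, was one of the evenest genes at 3.04, 3.02 and 3.03, and lmo2, its partner, read 2.00, 1.85 and 1.68. gata2a stood at 3.97, 4.37 and 3.65. The embryonic globins differed more: hbbe3 was at -1.68, 0.12 and 2.95 and hbae3 at 0.35, 0.95 and 2.32, both lowest on control 1 and highest on control 3. Heart and pronephros genes were detected in 12 of 12 cases, among them gata5 at 2.89, 3.33 and 2.67 and pax2a of the intermediate mesoderm and midbrain at 2.26, 2.31 and 1.99. cdh17, a cadherin of the pronephric duct, read -1.74, -1.0 and 0.14, with control 3 high.

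Epithelial genes gave bright signals. All 21 of 21 epidermis and periderm genes were detected, with a median level of 4.13, and krt5, a keratin, read 7.88, 8.01 and 8.10. krt4, a keratin of the periderm, read 7.74, 7.86 and 8.01. The arrays lay close together for both keratins. The hatching gland, which secretes the enzymes that open the chorion, showed 8 of 8 markers, and its protease he1.2 stood at 5.39, 5.47 and 5.96. Yolk syncytial layer and endoderm genes were detected in 21 of 23 cases. The apolipoprotein apoeb was at 7.63, 7.86 and 7.73, afp4, an apolipoprotein-like gene, at 7.82, 8.10 and 7.61, and ctslb, a cathepsin L placed in this list, at 7.85, 7.75 and 7.81. In RNA of whole embryos, a gene's place in a list does not show which tissue gave its signal. Control 2 was the highest array for 16 of the 21 detected members of that list, against 30.3% of all detected genes.

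Egg and germ line transcripts were still above background. The germ cell list was detected in 10 of 10 cases with a median level of -2.36, below the -0.84 of all detected genes, and nanos3, which primordial germ cells need to survive, read -1.53, -1.23 and -1.37. The oocyte and egg list was detected in 19 of 19 cases, with a median of -1.01. The egg coat genes zp2.3 and zp3 stood at 3.04, 2.99 and 2.84 and at 2.79, 2.96 and 2.81. Blastula and gastrula regulators were detected in 24 of 26 cases. ved and vox, ventral homeobox repressors, read 5.05, 5.66 and 4.09 and 4.06, 4.28 and 3.23, with control 3 lowest for both. tdgf1, the Nodal co-receptor, was at 3.11, 3.49 and 3.45, and the Nodal ligand ndr1 was detected on no control array. In bulk RNA, fewer cells of a type and less RNA per cell cannot be told apart.

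Markers of tissues that differentiate later were detected in 16 of 39 cases (41.0%), against 81.2% of genes with a symbol, and 12 were on no control array. The 12 were the lens crystallins cryaa and cryba1b, the elastase ela3l, the pituitary hormones gh1, prl and tshba, the adult globin hbba1, the leukocyte genes lyz, mpeg1.1 and mpx, the recombinase rag1 and the pigment gene tyrp1b. Of those detected, the fatty acid-binding protein fabp2 was bright at 5.80, 6.57 and 5.92, while the glial genes gfap (0.91, 0.69 and 1.94) and plp1a (0.78, 0.66 and 2.06) were highest on control 3. Muscle genes were detected in 22 of 24 cases. myf5, a factor of muscle precursors, was even at 3.64, 3.59 and 3.52, and the myosin chaperone unc45b read 3.85, 3.75 and 4.24. The fast myosin heavy chain myhz2 was on no control array. Whether its probe also binds close copies of the gene was not tested.

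The lists by function differed in spread as well. Ribosomal proteins were detected in 76 of 76 cases with a median level of 7.79 and a median SD of 0.097, and 0 had an SD of at least 1. Translation factors (27 of 28 detected, median level 5.70), chromatin and nucleolus (30 of 30, median 5.40), cytoskeleton (26 of 26, median 4.82) and cell cycle (30 of 31, median 3.51) also held 0 such genes. Since 1.6% of all detected genes and 20 of the 4669 brightest had such an SD, 0 is no departure for these lists. mcm7, a helicase subunit of DNA replication, read 6.66, 6.72 and 6.72, and ccnd1, cyclin D1, read 5.10, 5.71 and 5.40. Oxidative phosphorylation genes were detected in 52 of 53 cases with a median of 3.98. Its 1 uneven member, cox6b1, a subunit of cytochrome c oxidase, stood at -4.84, 0.54 and -1.17. Control 1 was far below the other arrays for cox6b1, while atp5f1b, the catalytic subunit of ATP synthase, read 6.76, 6.50 and 7.01. Hox genes were detected in 42 of 46 cases, among them hoxc8a at 2.61, 2.95 and 3.04 and hoxb10a at 2.87, 2.77 and 2.57, and hoxa13a and hoxc13b were on no control array.

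Glycolysis genes were detected in 23 of 29 cases and HIF pathway and target genes in 35 of 41. The glycolysis list had a median SD of 0.69, against 0.22 for all detected genes, and 7 of its 23 detected members had an SD of at least 1. In the HIF list 3 of 35 had one. aldoaa, an aldolase, stood at 5.89, 6.39 and 5.90, and gapdh stood at 4.17, 4.72 and 4.34. eno1a, an enolase, spanned the largest range of the list, with 0.15, 5.22 and 2.55 on control arrays 1, 2 and 3. Of the genes named for HIF alpha subunits, epas1b read -2.60, -2.56 and -2.42, and hif1al, which the reference table gives Hif-3alpha as a synonym, read 5.36, 5.58 and 5.47. hif1al2 and the HIF targets bnip3, epoa, lepb and tfr1a were on no control array.

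Heat shock genes and chaperones were detected in 25 of 25 cases, and the heat-inducible hsp70l was the only member with an SD of at least 1, at -0.11, -2.37 and -1.90, with control 1 high. The interferon list was detected in 13 of 18 cases, with a median level of -2.96. Circadian clock genes were detected in 23 of 28 cases. The clock activator bmal1a was even at 1.42, 1.43 and 1.53, and per1a, a period gene, read -1.19, -0.27 and -0.04. Signalling ligands and inhibitors were detected in 40 of 43 cases, among them the FGF-responsive phosphatase dusp6 at 3.87, 3.96 and 3.72. The hedgehog ligand dhh and ndr1 were on no control array.

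The evenest of the 1000 brightest symbols had SDs of 0.01 to 0.02 over the 3 arrays. They were the peptidyl-prolyl isomerase ppig, tfap2a, the 3' end processing factor cpsf6, sde2, the phosphatase subunit ppp1caa, N-cadherin (cdh2), the mitotic kinase aurkb, ssr1 of the translocon, arpp19a and oaz1a, a regulator of polyamine synthesis. cdh2 read 5.71, 5.73 and 5.71 and aurkb 4.39, 4.41 and 4.42. Each SD rests on 3 values of the brightest probe, and choosing the smallest of 1000 itself makes them small. Other detected probes of arpp19a had SDs of 0.21, 0.24 and 0.13. All 15 of 15 genes used as references in quantitative PCR were detected. Their SD was 0.08 for rpl13 and tbp, 0.09 for rpl13a, 0.10 for hprt1, 0.11 for rps18, 0.16 for eef1a1l1 and 0.19 for actb2. It was largest for b2m (0.61), at -2.58, -1.56 and -1.48, and for gapdh (0.28). Probes of the same gene did not always run alike: the brightest probe of actb2 was lowest on control 1, while another, at 5.78, 5.73 and 5.43, was lowest on control 3.

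The median detected gene had an SD of 0.221 over the control arrays, close to the 0.207 of the Hif-1α arrays and the 0.212 of the Hif-3α arrays. The median range over the 3 control arrays was 0.42 log2 units, or 1.34-fold. An SD under 0.1 was found for 2936 genes (15.7%) and an SD of at least 1 for 299 (1.6%), 147 of them with a symbol. Over the 17326 genes well above background on all 9 arrays, 214 had such an SD among the control, 180 among the Hif-1α and 223 among the Hif-3α arrays. The spread was larger for dim genes: over 4 equal bins of genes, dimmest to brightest, the median SD was 0.301, 0.261, 0.201 and 0.159, and 147, 90, 42 and 20 genes had an SD of at least 1. With normexp background correction that left out spots of high local background, and which draws dim signals together, 79 genes reached an SD of 1. Without control 2 there were 514 and without control 3 there were 183, from the SD of the remaining pair.

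**Figure D2:**
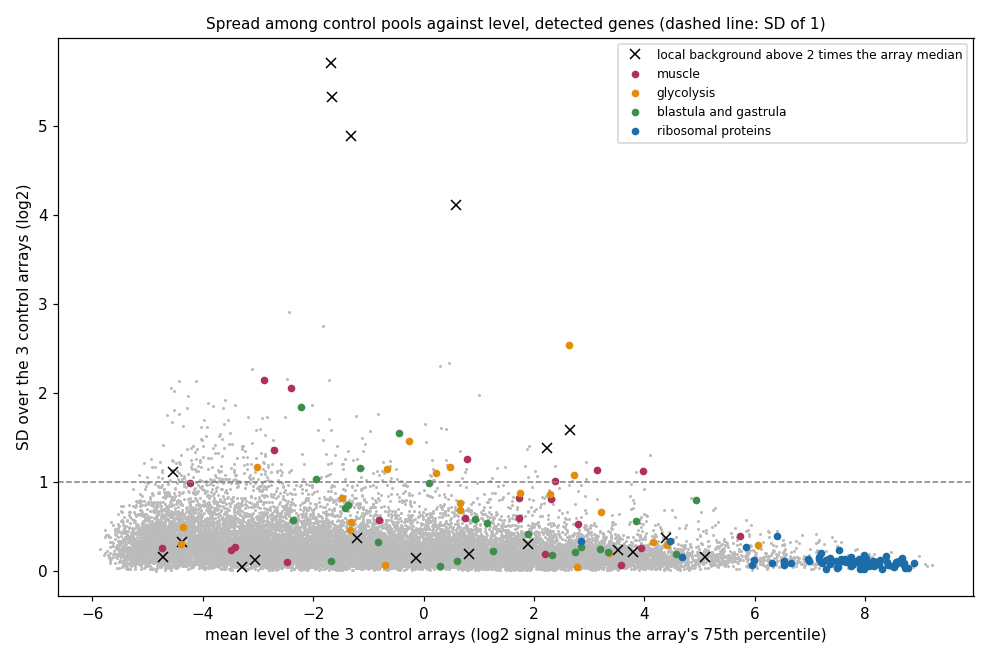
SD over the 3 control arrays (log2, vertical axis) against mean level (log2 signal minus the array's 75th percentile) for the 18676 detected genes in grey, with 4 lists coloured and the 19 genes with a probe of high local background crossed. The dashed line is an SD of 1; ribosomal proteins lie at the bright, even end, muscle and glycolysis genes reach SDs above 2, and the 4 highest points are crossed.

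Some of the largest spreads belong to spots of high local background on control 3. rcvrn3, a recoverin, read -4.99, -4.97 and 4.91, but its other probe read -2.71, -4.62 and -4.55. tatdn3 read -1.96, -1.60 and 5.33, and its other probes were even. amh, the anti-Müllerian hormone, read -4.97, -4.50 and 4.49 and has 1 probe. Of the 19 such genes 7 had an SD of at least 1, and the remaining 292 are described below. Another 2 of the most variable symbols had further probes, none of which bore them out: erc1a, high on control 2 by 1 of its probes, and vtg2, a vitellogenin, high on control 3 by 1 of 9. For atp2a1, apoea and cavin4b, named below, the array has 1 probe each, so no second probe could be read.

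The 292 genes with an SD of at least 1 fell mostly on control 3. Control 3 stood apart and high for 138 of them and apart and low for 45, control 2 high for 49 and low for 8, and control 1 low for 28 and high for 24. The set high on control 3 held 47.3% of the 292, against 21.4% of all detected genes. The set low on control 3 held 15.4%, against 15.5%, and the set high on control 2 held 16.8%, against 14.2%. These 2 sets were thus close to their shares of all detected genes. Each remaining set held a smaller share of the 292 than of all detected genes. Among all 299, the order control 1 below 2 below 3 was found for 135 genes (45.2%), against 23.5% of all detected genes. The other orders were each held by 14.4% to 16.1% of all detected genes: 15.4% for 1, 3, 2, 16.1% for 2, 1, 3, 14.4% for 2, 3, 1, 14.9% for 3, 1, 2 and 15.7% for 3, 2, 1. Over all detected genes control 1, 2 or 3 was the highest array for 30.1%, 30.3% and 39.6%, and the lowest for 38.8%, 30.5% and 30.7%. The 100 most variable symbols ended with the troponin tnni1c (SD 1.14) and the proteoglycan vcanb (1.13), and smyhc1 (1.13) lay just outside.

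Genes of contractile muscle were the main named group that was high on control 3. mylpfa, a fast myosin light chain, read -4.67, -3.48 and -0.52 on control arrays 1, 2 and 3. atp2a1, the calcium pump of the sarcoplasmic reticulum, read -3.38, -2.46 and 0.71, and the troponin tnnc1b read -3.95, -3.17 and -0.06. Control 3 was far above both other arrays for each. The slow myosin heavy chain smyhc1 (2.07, 3.05 and 4.32), the cardiac-type actin actc1b (3.01, 3.74 and 5.20) and myogenin, myog (-0.15, 0.30 and 2.21), ran the same way at higher signals. So did vgll2b, a cofactor of TEAD factors (-0.85, -0.36 and 2.13), smtnl1, a smoothelin-like protein (-4.32, -3.25 and -0.94), neurl2 (-5.38, -4.20 and -2.17), the troponin tnnt2c (-2.74, -1.61 and 0.68) and the caveola gene cavin4b (-5.50, -5.38 and -2.39). Another probe of actc1b, at 2.16, 2.59 and 4.14, was also highest on control 3, but a dimmer one was nearly even at 1.28, 1.36 and 1.44. Of the 22 detected members of the muscle list 18 were highest on control 3, against 39.6% of all detected genes, and 7 had an SD of at least 1. Their mean deviation from the mean of the 3 arrays was -0.57, -0.21 and 0.78 on control arrays 1, 2 and 3.

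Other genes high on control 3 came from several tissues. Besides hbbe3, they included apoea (-5.29, -3.92 and -1.67), an apolipoprotein, nr2f1b (-3.88, -3.06 and -0.57), a nuclear receptor, and the sodium pump atp1a1a.4 (-3.39, -2.12 and -0.24). Hox genes leaned the same way at a smaller size: 22 of 42 followed the order 1, 2, 3, against 23.5% of all detected genes. hoxa11b read -0.02, 0.54 and 1.5. hoxc11a read -2.74, -2.35 and -1.2. Lowest on control 3 were 10 of the 42, against 30.7% of all detected genes. The brightest probe of hoxa13b was among these, at -1.88, -1.95 and -3.32, while its other probe, at -3.0, -3.18 and -2.54, was highest there.

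Several regulators of gastrulation were low on control 3. lft2, a Nodal inhibitor, read -1.93, -0.55 and -4.19, gsc, a homeobox factor of the organizer, 0.30, 0.59 and -2.23, and hesx1, of the anterior neural plate, -0.65, 0.40 and -2.69. Both probes of gsc and all 3 of hesx1 had control 3 lowest. The Wnt antagonist frzb read -0.59, -0.38 and -2.48 and szl, sizzled, a Bmp pathway inhibitor in the ventral embryo, -1.26, -1.45 and -3.12. Of the 24 detected blastula and gastrula genes 20 were lowest on control 3, against 30.7% of all detected genes, 17 were highest on control 2, and 4 had an SD of at least 1. The mean deviations of the list were 0.13, 0.40 and -0.53. Signalling ligands and inhibitors were lowest on control 3 in 22 of 40 cases. That list shares lft1, lft2, chrd, dkk1b, frzb, szl, ndr1 and ndr2 with the blastula and gastrula list.

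**Figure D3:**
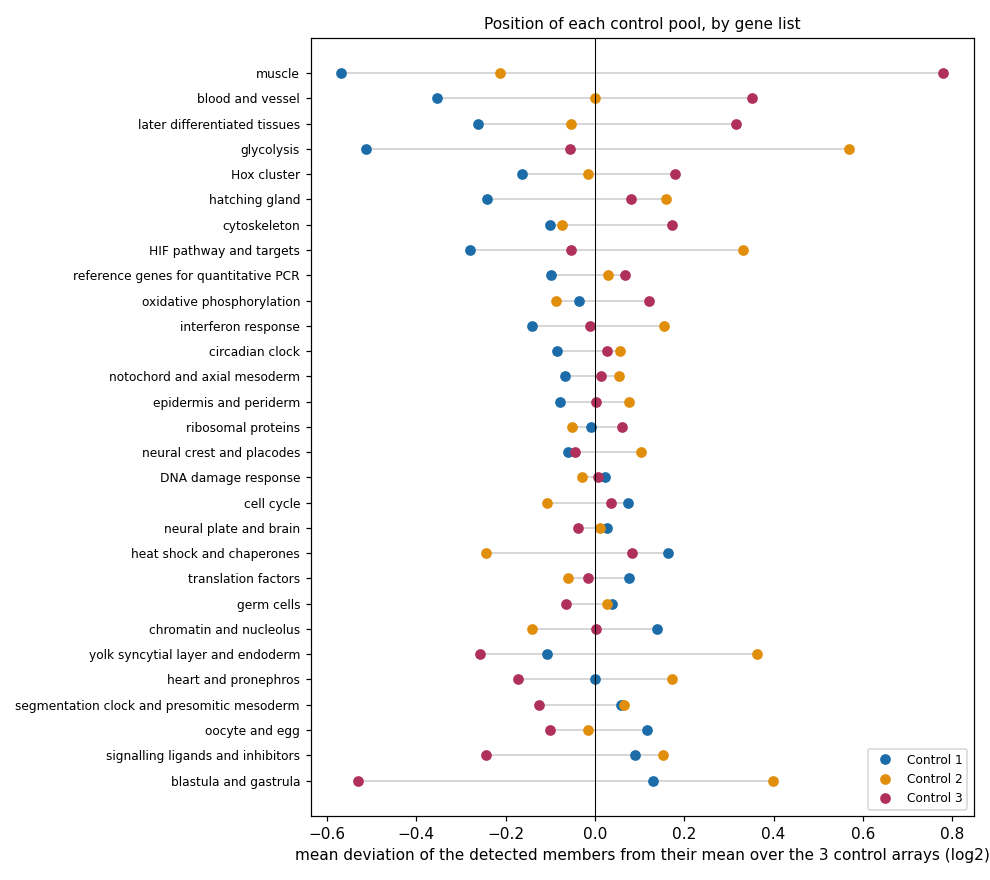
Mean deviation of the detected members of each list from their mean over the 3 control arrays (log2, horizontal axis), 1 point per control array. Control 3 lies at 0.78 for muscle and at -0.53 for blastula and gastrula genes, control 2 at 0.57 for glycolysis, and ribosomal proteins lie between -0.05 and 0.06.

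Several glycolysis and HIF target genes were among the 49 genes high on control 2. Most of the 49 were in neither list, and 26 had a symbol other than a clone or placeholder name. eno1a read 0.15, 5.22 and 2.55, and all 4 of its probes were highest on control 2. egln3, a prolyl hydroxylase that marks HIF alpha for degradation, read -0.81, 3.12 and 0.70, and its second probe -2.99, 1.19 and -1.34. The glucose phosphate isomerase gpia was at -1.22, 1.41 and -0.98, with the same pattern in its second probe. Control 1 was lowest and control 2 highest for each of these. igfbp1a, a binding protein of insulin-like growth factors, read -0.92, 1.2 and 0.12, and stc1, stanniocalcin, -5.37, -2.23 and -4.50. The second enolase eno1b stood at -3.89, -1.69 and -3.48, and sox32, a factor of endoderm, at -4.15, -1.76 and -4.93. ndrg1a, a hypoxia-inducible gene, was also highest on control 2, at 0.47, 3.21 and 1.95, but control 1 lay further from the others and it is not among the 49. Of the 23 detected glycolysis genes 16 were highest on control 2, against 30.3% of all detected genes, and 18 were lowest on control 1, against 38.8%. For the HIF list these counts were 21 and 22 of 35. The mean deviations on control arrays 1, 2 and 3 were -0.51, 0.57 and -0.06 for glycolysis and -0.28, 0.33 and -0.05 for the HIF list.

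**Figure D4:**
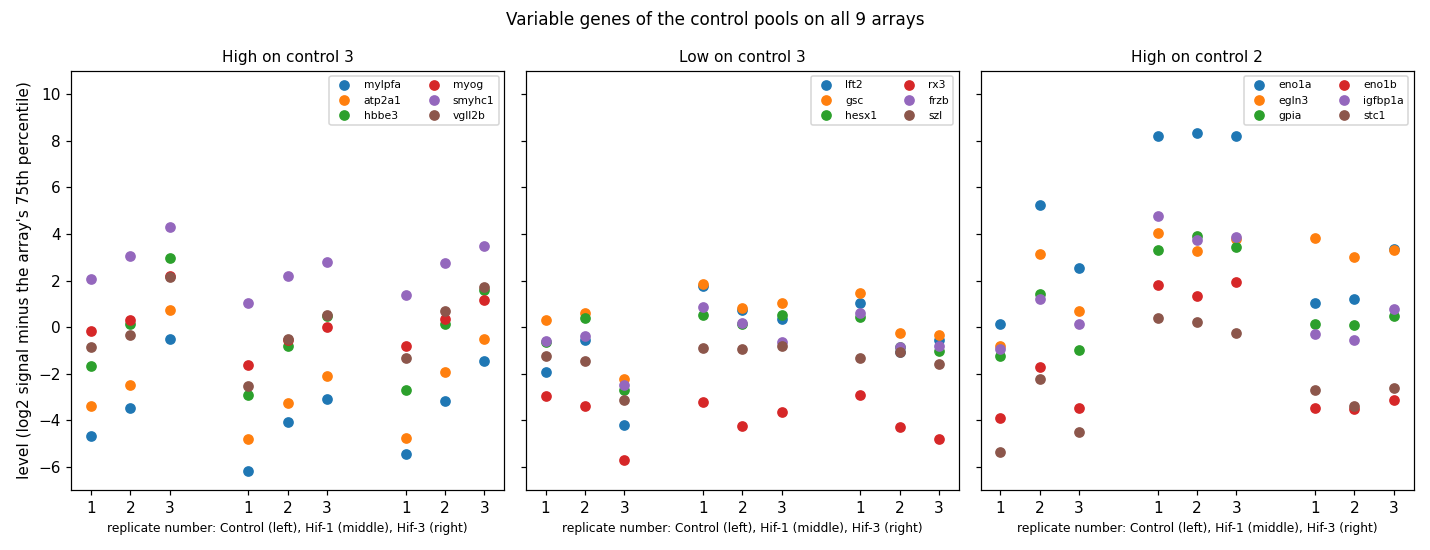
Level (log2 signal minus the array's 75th percentile) of 6 genes high on control 3, 6 low on control 3 and 6 high on control 2, for the control, Hif-1α and Hif-3α arrays by replicate number. The first set is higher on replicate 3 than on replicate 1 in all 3 groups, as for mylpfa, while the third set is high on control 2 and not highest on replicate 2 of both Hif groups.

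Probes of the same gene differed by signal on control 3 too. For 3336 genes whose brightest and dimmest detected probes were at least 2 log2 units apart, the dim probe minus the bright one moved from its control mean by 0.20, 0.02 and -0.23 on control arrays 1, 2 and 3. It was lower on control 3 than on both other control arrays for 2433 of them. On the Hif arrays it moved by -0.13 on Hif-3α replicate 3 and by 0.02 to 0.09 on the other 5. Dim signals were thus lower on control 3 relative to bright ones of the same gene. The part of this in the genes above was not tested.

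Whether these differences recur between arrays of the same replicate number was read from the 6 Hif arrays, which did not enter the choice of the variable genes. Differences below are replicate 3 minus replicate 1, over both Hif groups, from a limma fit with group and replicate number and 2 residual degrees of freedom. Of 19549 genes tested, 849 differed between replicates 3 and 1 (4.34%), 595 higher (3.04%) and 254 lower (1.3%) in replicate 3, and 671 between replicates 2 and 1 (3.43%), 313 higher (1.6%) and 358 lower (1.83%) in replicate 2. The test over the 3 numbers called 398 genes (2.04%), and 0 genes differed between replicates 3 and 2, with 3615 at an unadjusted p under 0.05. All these calls are fragile. Leaving out any 1 Hif array other than Hif-1α replicate 1, which leaves 1 residual degree of freedom, ended every call, and so did testing all 28550 genes without the filter on dim probes. In the deposited matrix 729 genes differed between replicates 3 and 1, but 0 between replicates 2 and 1. The split by direction also moved with the background correction. With normexp without spots of high local background, 971 genes were higher and 1189 lower in replicate 3 than in 1. Between replicates 2 and 1, 987 were then higher and 3419 lower in replicate 2.

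Of the 138 genes high on control 3, 126 were higher on replicate 3 than on replicate 1 of the Hif arrays, and 123 of them in both Hif groups (89.1%), against 52.5% of all detected genes in the direction of their own control difference. The fit called 93 of the 138 (67.4%), against 43.5% of the 299 and 4.34% of all detected genes. Of the 93, 92 were in the direction of the controls. Since replicates 1 and 3 of Hif-1α shared a slide, the difference could also be read within it: 128 of the 138 were higher on replicate 3 there. Of all detected genes 63.9% ran in their own control direction within that slide, and of the 299 genes 247 did. mylpfa read -6.17, -4.08 and -3.08 on Hif-1α arrays 1, 2 and 3 and -5.45, -3.16 and -1.46 on the Hif-3α arrays, a difference of 3.54 ± 0.25 (SE, adjusted p = 0.0244), and 3.09 within the slide. hbbe3 read -2.89, -0.81 and 0.49 and -2.68, 0.12 and 1.60 (3.83 ± 0.25, adjusted p = 0.0229). Replicate 1 was lowest and replicate 3 highest for both genes in both Hif groups. vgll2b differed by 3.04 ± 0.10 (adjusted p = 0.0225), atp2a1 by 3.47 ± 0.40 (adjusted p = 0.0349), smyhc1 by 1.94 ± 0.13 (adjusted p = 0.0229) and myog by 1.81 ± 0.13 (adjusted p = 0.024). Of the 22 muscle genes 13 were higher in replicate 3, against 3.04% of all genes, and 0 lower, against 1.3%. Of the 42 Hox genes 4 were higher and 0 lower, hoxa11b by 1.25 ± 0.14 (adjusted p = 0.033).

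Of the 45 genes low on control 3, 44 were lower on replicate 3 than on replicate 1 of the Hif arrays. In both groups 39 were lower (86.7%, against 74.6% of the 299 in their own control direction). The fit called 23 (51.1%, against 43.5% of the 299), all in that direction. Within the Hif-1α slide 42 of 45 were lower, against the same 63.9% of all detected genes and 247 of the 299. The 6 developmental genes of this set named above did not pass: lft2 differed by -1.52 (adjusted p = 0.0663), gsc by -1.30 (adjusted p = 0.0709), frzb by -1.47 (adjusted p = 0.0542), rx3 by -1.16 (adjusted p = 0.15), hesx1 by -0.72 (adjusted p = 0.264) and szl by -0.09 (adjusted p = 0.773). chrd, the Bmp antagonist of the organizer, which read -0.75, -1.36 and -2.15 in the controls, passed with -1.12 ± 0.16 (adjusted p = 0.0459). Of the 24 blastula and gastrula genes 2 were lower, against 1.3% of all genes, and 0 higher.

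The genes high on control 2 were, as a set, not higher on replicate 2 of the Hif arrays. These arrays carry injected Hif mRNA, and 18 of the 49 genes had every Hif-1α array above the highest control. For those genes the Hif-1α arrays cannot decide whether the control pattern recurs. Whether the injected mRNA hides such a pattern in the remaining genes was not tested. Of all 49 genes 21 were higher on replicate 2 than on replicate 1 of the Hif arrays, 15 of them in both groups (30.6%). In their own control direction were 42.0% of all detected genes and 61.2% of the 299 with an SD of at least 1. The fit called 2, and 0 of these in the direction of the controls. With Hif-1α egln3 read 4.02, 3.28 and 3.79, and with Hif-3α 3.83, 3.03 and 3.30, where replicate 2 was the lowest of each group. These values all lie near or above the 3.12 of control 2, so egln3 cannot decide whether its control pattern recurs.

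**Figure D5:**
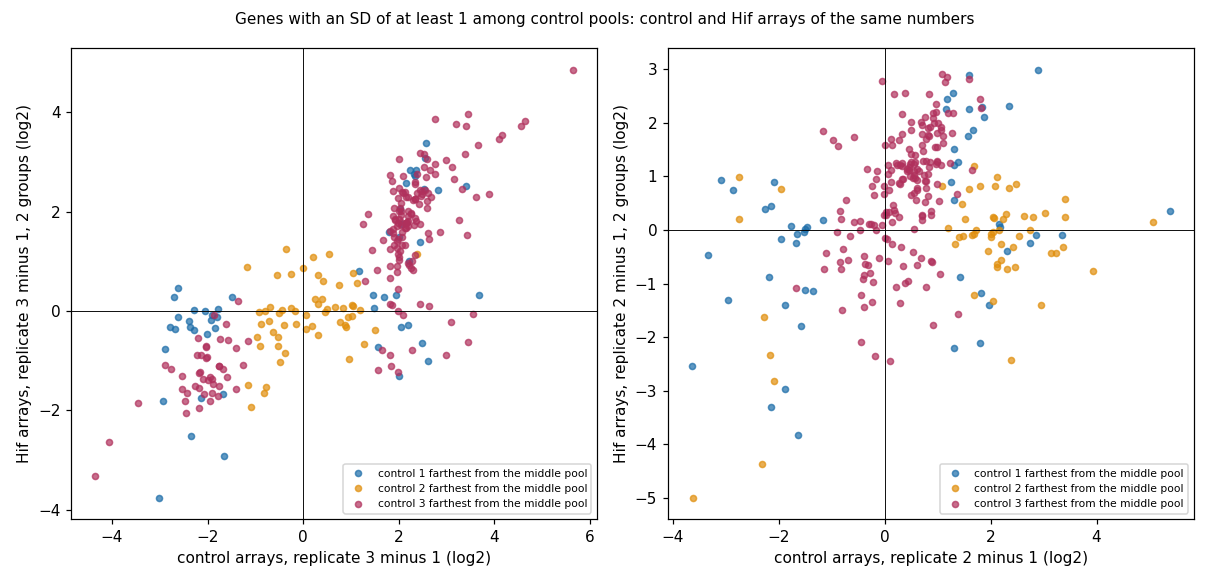
Differences between replicate numbers on the Hif arrays (log2, mean of both groups, vertical axis) against the same difference on the control arrays (log2, horizontal axis) for the 292 genes with an SD of at least 1 and low local background, replicate 3 minus 1 on the left and 2 minus 1 on the right. Genes for which control 3 stands apart lie mostly in the quadrants of like sign on the left (126 of 138 and 44 of 45), and those for which control 2 stands apart scatter about 0 on the vertical axis on the right.

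Against the other groups the baseline was close to the Hif-3α arrays and further from the Hif-1α arrays, as counted by calls. Differences here are control minus Hif, so a negative value means lower in the controls. Of 19549 genes, 1755 differed between control and Hif-1α (8.98%), 712 higher (3.64%) and 1043 lower (5.34%) in the controls. With the replicate number as a block the count was 4327, and with the arrays centred on their medians it was 2090, 1254 higher and 836 lower in the controls. With scan day as a block it was 4, so the named differences from Hif-1α below hold without day in the fit. Only 1 day, shared by controls 2 and 3 and Hif-1α replicate 2, holds both groups. Leaving out 1 array gave 362 to 1914 calls, with 472 without control 1 and 370 without control 3. Between control and Hif-3α 1 gene differed (0.00512%), lower in the controls, and 0 were higher (0.0%), with 1197 at an unadjusted p under 0.05. It was casp6b.2, a caspase, named after its values were seen, and it was detected on no control array. casp6b.2 entered the fit only because it was detected in a Hif group, which largely fixed its direction in advance. With the replicate number as a block the count was also 1. The count rests on 1 probe a gene and misses hif1al, chosen here after its values were seen. Its brightest probe, used in the fit, read 5.36, 5.58 and 5.47 in the controls and 5.43, 5.47 and 5.49 with Hif-3α. Another of its 4 probes read -1.96, -1.81 and -2.08 in the controls and 6.75, 6.29 and 6.64 with Hif-3α, and the remaining probes were also higher on every Hif-3α array than on any control array. The difference between these counts was not itself tested.

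Few of the brightest genes of the baseline differed. Of the 100 brightest symbols 1 differed between control and Hif-1α, against 8.98% of all genes, and 0 between control and Hif-3α. The gene was afp4, at 7.82, 8.10 and 7.61 in the controls and 8.72, 8.54 and 8.65 on the Hif-1α arrays, a difference of -0.79 ± 0.16 (SE, adjusted p = 0.0247). Every control array was below every Hif-1α array, but the call ended without control 1, control 3 or any 1 Hif-1α array. With the replicate block 5 of the 100 differed, against 22.1% of all genes. Of the quantitative PCR references 1 of 15 differed, the ubiquitin-conjugating enzyme ube2a, at 2.26, 1.91 and 2.14 in the controls and 1.65, 1.64 and 1.47 on the Hif-1α arrays (0.51 ± 0.13, adjusted p = 0.0473), a call that also ended without control 1, control 3 or any 1 Hif-1α array.

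Of the 299 genes with an SD of at least 1 among the controls, 12.7% had every Hif-1α array above the highest control and 8.36% every one below the lowest, against 16.1% and 17.8% of all detected genes. The choice of genes with a wide control range itself makes both outcomes rarer. Glycolysis and HIF target genes, which include several of the 299, are set here against the 5.34% of all genes that were lower and the 3.64% that were higher in the controls. Of the 23 detected glycolysis genes 12 were lower in the controls than with Hif-1α and 1 was higher, and of the 35 detected HIF pathway and target genes 14 were lower and 0 higher. With the replicate block these counts were 13 lower and 3 higher for glycolysis and 21 and 0 for the HIF list, where 11.3% of all genes were lower and 10.8% higher. gapdhs, a glyceraldehyde phosphate dehydrogenase, read 2.62, 3.93 and 3.1 in the controls and 8.27, 8.24 and 7.98 on the Hif-1α arrays, a difference of -4.95 ± 0.29 (adjusted p = 0.000615). Every control array was far below every Hif-1α array, also on the shared scan day, with 3.93 and 3.1 in the controls and 8.24 with Hif-1α. gpia, which read -1.22, 1.41 and -0.98 in the controls, stood at 3.32, 3.90 and 3.46 with Hif-1α (-3.82 ± 0.60, adjusted p = 0.0129), and igfbp1a at 4.76, 3.75 and 3.86 (-3.99 ± 0.56, adjusted p = 0.00817). eno1a stood at 8.22, 8.34 and 8.18 (-5.61 ± 1.13, adjusted p = 0.0249) and cox6b1 at 4.21, 4.60 and 4.39 (-6.22 ± 1.1, adjusted p = 0.0174). Both spread widely among the controls: the call of eno1a ended without control 1, control 3 or any 1 Hif-1α array, and that of cox6b1 without control 3, Hif-1α replicate 1 or Hif-1α replicate 3. egln3 did not pass (-2.70 ± 0.82, adjusted p = 0.0771), with control 2 at 3.12 close to the lowest Hif-1α array at 3.28.

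Of the 49 genes high on control 2, 18 had every Hif-1α array above the highest control (36.7%), against 16.1% of all detected genes, and 4 had every Hif-1α array below the lowest control, against 17.8%. For Hif-3α the counts were 3, against 7.0%, and 2, against 4.05%. Of the 138 genes high on control 3, 1 had every Hif-1α array above the highest control (0.725%) and 15 had every one below the lowest (10.9%). These shares are below the same 16.1% and 17.8%. The choice of genes with a wide control range itself makes both outcomes rarer. Of the 22 detected members of the muscle list 0 differed from Hif-1α without the block. With the block, whose pairing was taken from these data, 16 of the 22 were higher in the controls, where 10.8% of all genes were. The list's member myhz2, detected on no control array, is outside these counts. It was lower in the controls (-4.50 ± 0.45, SE, adjusted p = 0.00305, and 0.00383 with the block). It entered the fit only because it was detected in a Hif group, which largely fixed that direction in advance. smyhc1 averaged 3.14 ± 1.13 in the controls and read 1.04, 2.2 and 2.81 with Hif-1α (SD, n = 3), a difference of 1.13 ± 0.72 (SE, adjusted p = 0.342, and 0.00754 with the block). Of the cytoskeleton list, the tubulin tubb5 was higher in the controls, at 5.06, 4.48 and 5.40, than with Hif-1α, at 2.78, 3.40 and 3.30 (1.82 ± 0.26, adjusted p = 0.00891). aanat2, which makes melatonin's precursor, was higher too, at 0.61, 0.37 and 0.69 against -0.94, -1.33 and -0.73 (1.55 ± 0.18, adjusted p = 0.00431). Both calls held whichever 1 array was left out.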

How the data were processed

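Total RNA of 9 embryo pools was read on 1-colour Agilent arrays, and per the file headers the scans were extracted with Feature Extraction 10.7.3.1. The deposited processed signal is an intensity on a linear scale, corrected within the array for background by that software, per the file headers. Spot flags, per the file headers, are of another kind, 0 or 1. The authors' deposited series matrix holds log2 values with nearly equal quantiles on all arrays, whose exact normalization is not given in the sources used here. The series' design text names GeneSpring 11.0. Headers give the probe annotation on danRer6, and symbols were updated by accession through the GRCz12tu table.

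From these values, log2 of the processed intensity minus the array's 75th percentile was computed, without control spots and outlier spots. Each gene was read from its brightest probe. Fits used limma 3.58.1 in R 4.3.3, on 19549 genes, with Benjamini-Hochberg adjustment and a threshold of 0.05 on the adjusted p-value, all 3 groups sharing 1 estimate of the spread. Tables were made with Python 3.11.15, pandas 2.3.3 and numpy 2.4.6, and the fits were tested on simulated data. Same-numbered arrays deviated together (correlations of 0.11 to 0.58 in all 9 pairs, over 19236 genes), so replicate numbers were taken to pair the arrays from the data. The labels do not tie a number to 1 of the 3 injection experiments. Results with the replicate block thus rest on a pairing chosen from the same data, and are no independent support for it. The pairing was weakest for control 2, at 0.11 with Hif-1α replicate 2 and 0.12 with Hif-3α replicate 2. The normexp alternative used median signals in place of mean signals, which were not used here. Genes named were the 30 brightest, the 10 evenest among the 1000 brightest, the most variable, and for each list the 5 brightest and the 4 with the largest SD. Further members were named for their patterns after their values were seen. Members and lists were chosen with earlier results of these data known. The spread between arrays covers experiment, slide and scan together. Some named genes are not reported here.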

Additional observations from a re-analysis of the deposited data

How the results depend on the processing

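The count of detected genes ran from 16880 (every probe of a gene) to 22311 (the flag for a positive and significant signal), and 75 (median over probes) to 100 of the 100 brightest genes stayed among them, while counts of calls depended strongly on background correction, filter and replicates. Normexp on spot medians was distorted by the spots of high local background. It gave 4659 genes with an SD of at least 1 in place of 299, kept 17 of the 100 most variable genes, and gave 0 calls for the replicate number, for replicates 2 minus 1 and for 3 minus 1, 5 for control against Hif-1α and 0 for control against Hif-3α, with 0 of the 100 most variable genes passing for either difference between numbers. Without those spots, an alternative added after seeing the data, these values were 79, 55, 3811, 4406, 2160, 2749 and 6. Among the brighter genes 62 had an SD of at least 1, and leaving out 1 control array gave 183 to 514. The deposited matrix gave 0 calls for the replicate number and for 2 minus 1, 2 for control against Hif-3α, and 0 of the 100 most variable genes passing for 2 minus 1. The median over probes gave 91, 282 and, for control against Hif-3α, 6. With no filter on dim probes there were 0 calls for the replicate number, for 2 minus 1, for 3 minus 1 and for control against Hif-3α (8470, 8583, 8096 and 1287 at an unadjusted p under 0.05 in limma) and 607 for control against Hif-1α. Leaving out 1 array gave 0 to 361 calls for the replicate number, 0 to 512 for 2 minus 1, 0 to 704 for 3 minus 1 (at least 3226 at an unadjusted p under 0.05), 362 to 1914 for control against Hif-1α and 0 to 13 for control against Hif-3α. The replicate block, which uses the pairing by replicate number taken from these data, gave 4327 calls for control against Hif-1α. Scan day as a block gave 4 and 0 calls against Hif-1α and Hif-3α, and fitting only the groups compared gave 687 and 0. Apart from the effect of the high local background, the cause was not tested.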
